A study of Homo sapiens with 4 samples.

Results

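The S100 genes encode small calcium-binding proteins, and 10 of them were followed in HeyC2 and SKOV3, which are lines of ovarian cancer cells. The genes were chosen by symbol and are S100A2, S100A3, S100A4, S100A6, S100A10, S100A11, S100A13, S100A14, S100A16 and S100P. All 10 were found among the 26506 gene symbols of each table of expression values. Each line had received either pCMV6/TET1, a plasmid for TET1, a dioxygenase that oxidises 5-methylcytosine in active DNA demethylation, or the empty plasmid as the control. In every group 3 μg of plasmid was transfected and the cells were kept in 400 μg/ml Geneticin, so selection was shared by controls and TET1 cells. The groups were thus HeyC2 control, HeyC2 TET1, SKOV3 control and SKOV3 TET1, with controls labelled wild-type and TET1 cells labelled TET1 overexpressed. Whether a clone or a mixed population of transfected cells was sequenced is not given in the sources used here. There was 1 RNA-seq library per group, 4 in all, so no difference within a line has a replicate check and no p-value was computed.

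S100 proteins are mostly dimers in which each chain carries a pair of EF-hand loops, the helix-loop-helix motif that holds calcium. Calcium binding opens a hydrophobic surface that docks partner proteins such as annexins, myosin and ezrin, and some members are also secreted and act on cell-surface receptors. In epithelial cancers they are best known for S100A4, which binds nonmuscle myosin and is linked to motility. Most of the genes sit in 1 cluster on the long arm of chromosome 1, together with the genes of the cornified skin envelope.

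Values were FPKM, fragment numbers scaled to transcript length and library size. The deposited values of each TET1 library had been multiplied by a constant under which GAPDH equals that of the control. The constant was 3.23 for HeyC2 and 1.35 for SKOV3. The constant was divided out, and FPKM below are on the library's own scale unless called as deposited. TET1 itself was at 0.20 FPKM in the HeyC2 control and 0.519 FPKM in HeyC2 TET1, and at 0.43 and 1.80 FPKM in the SKOV3 libraries. Depth was estimated from the spacing of the low FPKM values, at 6600000 to 7300000 mapped fragments per library. PAX8, KRT8 and KRT18, which mark epithelial cells of the female genital tract and simple epithelia, were at 74.6 FPKM or more in all 4 libraries, while WT1 was listed at 0 in 3 of them and at 0.528 FPKM in SKOV3 TET1. EPCAM and KRT19, also epithelial markers, were low in HeyC2. In HeyC2 control and TET1, EPCAM was at 0.09 and 0.380 FPKM and KRT19 at 0.62 and 1.59 FPKM. The mesenchymal gene VIM ranked 1 in the HeyC2 control. The leukocyte marker PTPRC and the endothelial marker PECAM1 did not exceed 0.282 FPKM in any library.

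Of the 10 genes, 9 lie on chromosome 1 (GRCh37, the build of hg19) and all of these run on the minus strand. A stretch of the cluster starts with S100A6 (153507075 to 153508720). S100A4 (153516089 to 153522612) spans S100A3 (153519805 to 153521734) on the same strand, and the exons of the pair share 0 bases. S100A2 (153533584 to 153540366), S100A16 (153579362 to 153585621), S100A14 (153586731 to 153589462) and S100A13 (153591263 to 153603836) follow. S100A10 (151955391 to 151966335) and S100A11 (152004982 to 152020383) lie apart from the others. S100P is on the plus strand of chromosome 4 (6695605 to 6698897).

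The promoters of 3 neighbours are shown because S100A6 was high in all 4 libraries while S100A3 and S100A4 moved in opposite directions in the lines. Each run covers 250 bases before and 50 bases after a RefSeq transcription start, is written 5′ to 3′ on the minus strand, and carries the CpG dinucleotides, the sites where DNA methylation is placed, in capitals. The RefSeq windows, given there on GRCh38.p14, each matched GRCh37 at 1 position, chr1:153521685-153521984 for S100A3, chr1:153518233-153518532 for S100A4 and chr1:153508418-153508717 for S100A6. The S100A4 window thus lay inside the annotated span of S100A4, and a transcript from this start does not run through S100A3.
S100A3: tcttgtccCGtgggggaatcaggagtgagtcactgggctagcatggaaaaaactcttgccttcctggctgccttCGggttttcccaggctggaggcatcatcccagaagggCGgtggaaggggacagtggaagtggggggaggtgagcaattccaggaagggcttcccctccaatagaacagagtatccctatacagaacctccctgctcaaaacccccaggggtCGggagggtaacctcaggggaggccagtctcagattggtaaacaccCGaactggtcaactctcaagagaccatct
S100A4: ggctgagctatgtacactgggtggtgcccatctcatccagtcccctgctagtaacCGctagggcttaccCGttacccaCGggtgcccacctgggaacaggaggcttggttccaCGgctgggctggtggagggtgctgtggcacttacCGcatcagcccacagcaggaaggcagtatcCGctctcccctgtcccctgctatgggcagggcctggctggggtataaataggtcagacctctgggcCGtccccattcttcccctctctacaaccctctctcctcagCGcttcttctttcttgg
S100A6: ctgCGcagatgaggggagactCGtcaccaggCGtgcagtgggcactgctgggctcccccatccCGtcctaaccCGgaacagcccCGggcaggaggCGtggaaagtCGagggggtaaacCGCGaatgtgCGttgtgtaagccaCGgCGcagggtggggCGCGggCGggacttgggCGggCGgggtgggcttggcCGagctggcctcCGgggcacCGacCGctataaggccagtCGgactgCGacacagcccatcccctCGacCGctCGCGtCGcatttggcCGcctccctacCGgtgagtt

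The S100A6 window held 31 CpG, the S100A4 window 8 and the S100A3 window 5, against a median of 14 over 35116 RefSeq promoter windows of this length. Counted over the 14 windows of all 10 genes, CpG numbers ran from 3 to 32. S100A10 with 32 and S100A11 with 22 were the other genes with over 20, and S100A13 had 11, 12 and 19 at its 3 starts. S100A2 (4 and 5), S100A14 (5), S100P (5) and S100A16 (3 and 8) were, like S100A3 and S100A4, under the median of 14. The 25th percentile over all windows was 4 CpG, and only the S100A16 window with 3 lay under it. The motif TATAAA, searched on both strands, was found in 3 of the 14 windows, against 11.5% of all windows. These were the windows of S100A4 and S100P and the S100A13 window with 11 CpG. Methylation was not measured in these libraries.

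The 10 genes made up 0.818% of all FPKM in the HeyC2 control and 0.684% in HeyC2 TET1. The SKOV3 libraries gave them 1.04% without and 0.768% with the TET1 plasmid. The highest of them in every library was S100A6, calcyclin, which binds annexins and the calcyclin-binding protein. S100A6 stood at 1814 FPKM in the HeyC2 control, 1638 FPKM in HeyC2 TET1, 1989 FPKM in the SKOV3 control and 1575 FPKM in SKOV3 TET1. S100A6 was among the 44 highest genes in each library and ranked 12 in the SKOV3 control. S100A11, S100A16, S100A13 and S100A10 were all above the 96th percentile of detected genes in all 4 libraries, between 148 and 708 FPKM. S100A2, a gene of basal and squamous epithelium, and S100A3, a cysteine-rich protein of the hair cuticle, lay lower, between 5.63 and 120 FPKM. S100A14 and S100P were at the edge of detection.

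**Figure D1:**
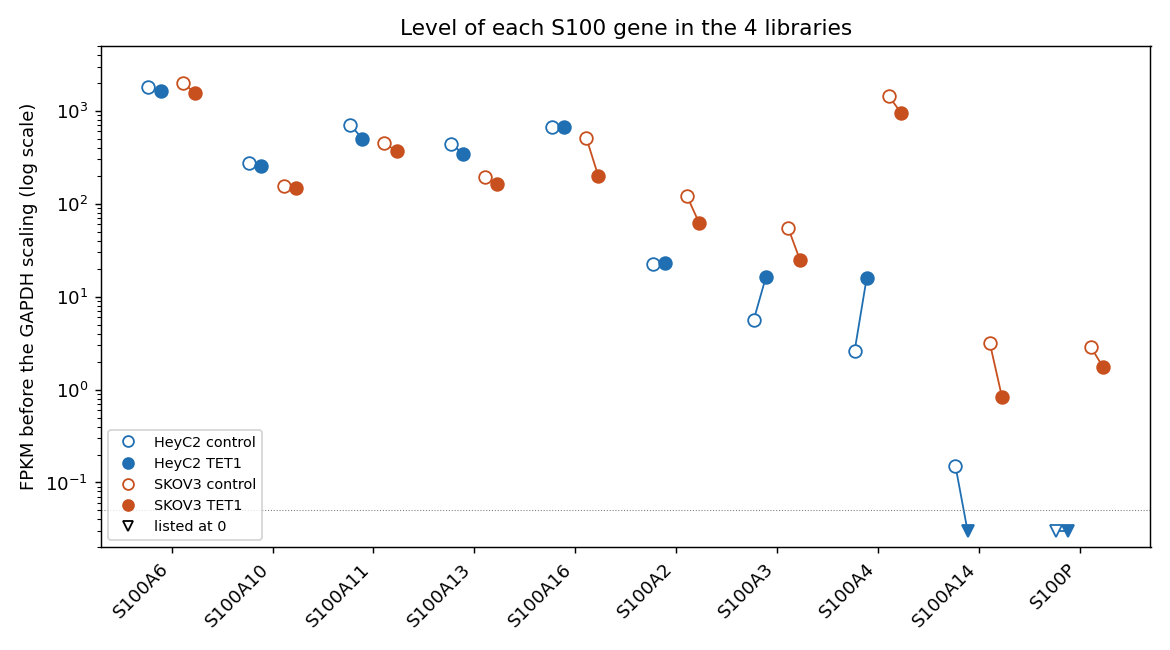
FPKM before the GAPDH scaling (log axis) of the 10 S100 genes, with open circles for control and filled circles for TET1, HeyC2 in blue and SKOV3 in orange, and triangles under the dotted line for values listed at 0. S100A6 lies between 1575 and 1989 FPKM in all 4 libraries, while S100A4 ranges from 2.61 FPKM in the HeyC2 control to 1431 FPKM in the SKOV3 control.

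The control libraries of the lines differed most in S100A4. Its level was 2.61 FPKM in the HeyC2 control, at the 33.8th percentile of detected genes, and 1431 FPKM in the SKOV3 control, where it ranked 23. The SKOV3 value was 548 times the HeyC2 value, with a counting interval of 268 to 1374 (95%, exact Clopper-Pearson on estimated fragment numbers). Among 12488 genes with a mean of at least 1 FPKM over both controls, 0 had a larger absolute log2 difference. The tables of the lines were made separately, and the median log2 difference of all these genes was 0.27 in favour of SKOV3. All intervals given here cover counting error only, not the spread between cultures, and rest on 1 annotated transcript length per gene.

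The genes next to S100A4 were also higher in the SKOV3 control. S100A3 was at 5.63 and 55.4 FPKM in the HeyC2 and SKOV3 controls, a ratio of 9.83 (6.37 to 15.2). S100A2 was at 22.7 and 120 FPKM, a ratio of 5.29 (4.41 to 6.42). S100A5, which lies between S100A6 and S100A4 and is not among the 10, was at 1.97 and 8.88 FPKM, a ratio of 4.51 (2.10 to 10.5). The run of 4 successive genes from S100A5 to S100A2 thus had the higher level in SKOV3. S100A6, at the edge of this run, had a ratio of 1.10 (1.05 to 1.15).

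The other abundant members were lower in the SKOV3 control than in the HeyC2 control. The ratio of SKOV3 to HeyC2 was 0.443 (0.395 to 0.497) for S100A13, which takes part in the export of FGF1 and IL1A, and 0.553 (0.498 to 0.615) for S100A10, the annexin A2 partner that has lost calcium binding. It was 0.635 (0.591 to 0.681) for S100A11, which binds annexin A1, and 0.766 (0.734 to 0.800) for S100A16. S100A14, an epithelial member, was at 0.15 FPKM in the HeyC2 control, about 1 fragment, and at 3.17 FPKM, about 20 fragments, in the SKOV3 control. S100P, which binds ezrin, was listed at 0 in both HeyC2 libraries and was at 2.89 FPKM in the SKOV3 control, about 6 fragments. A count of 0 allows up to 3 fragments of S100P, which is 1.25 FPKM in the HeyC2 control and 1.52 FPKM in HeyC2 TET1.

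In HeyC2, S100A4 and S100A3 rose with TET1 and the other measured members stayed within 1.5-fold of the all-gene median. Changes were computed as log2(FPKM + 1) differences and read against the median of all genes whose FPKM averaged 1 or more, which was 0.06 in HeyC2. Of the 10 genes 8 passed this filter. A total of 2 were at least 1.5-fold above the all-gene median, against 12.5% of 11894 genes, and 0 were as far below it, against 9.17%. The median of the 8 was -0.12. On the deposited GAPDH-scaled values, with no centring, all 8 were at least 1.5-fold above control, as were 96.2% of all genes, and 0 were as far below, against 0.513%, so the directions given for HeyC2 hold relative to all genes and turn upward on that scale.

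S100A4 went from 2.61 to 16.02 FPKM in HeyC2, about 7 and 36 fragments. Its log2 change relative to all genes was 2.18, higher than that of 99.5% of genes, and the plain FPKM ratio was 6.14 with a counting interval of 2.70 to 16.4. S100A3 went from 5.63 to 16.2 FPKM, about 25 and 62 fragments, with a relative log2 change of 1.31 and a ratio of 2.87 (1.76 to 4.71). Neither interval reached the median ratio of all genes in HeyC2, 1.05. Even so, S100A4 in HeyC2 TET1 was at 1.12% of its level in the SKOV3 control, and S100A3 at 29.2%. The neighbours on both sides of the pair stayed within the 1.5-fold limit. S100A5 was at 1.97 and 2.19 FPKM, about 9 fragments in each library, and its ratio of 1.11 had a wide interval, 0.402 to 3.25. S100A2 was at 22.7 and 23.1 FPKM, with a relative log2 change of -0.03, or 0.05 when the deposited values were centred, and a ratio of 1.02 (0.796 to 1.31).

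The abundant members of HeyC2 lay near or under the all-gene median. S100A6 had a relative log2 change of -0.21 and S100A10 of -0.17. S100A16 was at -0.08, or at 0.04 when the deposited values were centred. S100A11 went from 708 to 503 FPKM, a relative log2 change of -0.55, and S100A13 from 444 to 343 FPKM, a change of -0.43. The ratio was 0.710 (0.663 to 0.761) for S100A11 and 0.774 (0.703 to 0.852) for S100A13, so both intervals ended below the all-gene median ratio of 1.05 while the changes stayed inside the 1.5-fold limit. Reads of S100A11 are uncertain because the annotation holds 8 S100A11 pseudogenes on chromosomes 7 and X. S100A14 and S100P did not pass the filter, and no fold is given for them in HeyC2.

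**Figure D2:**
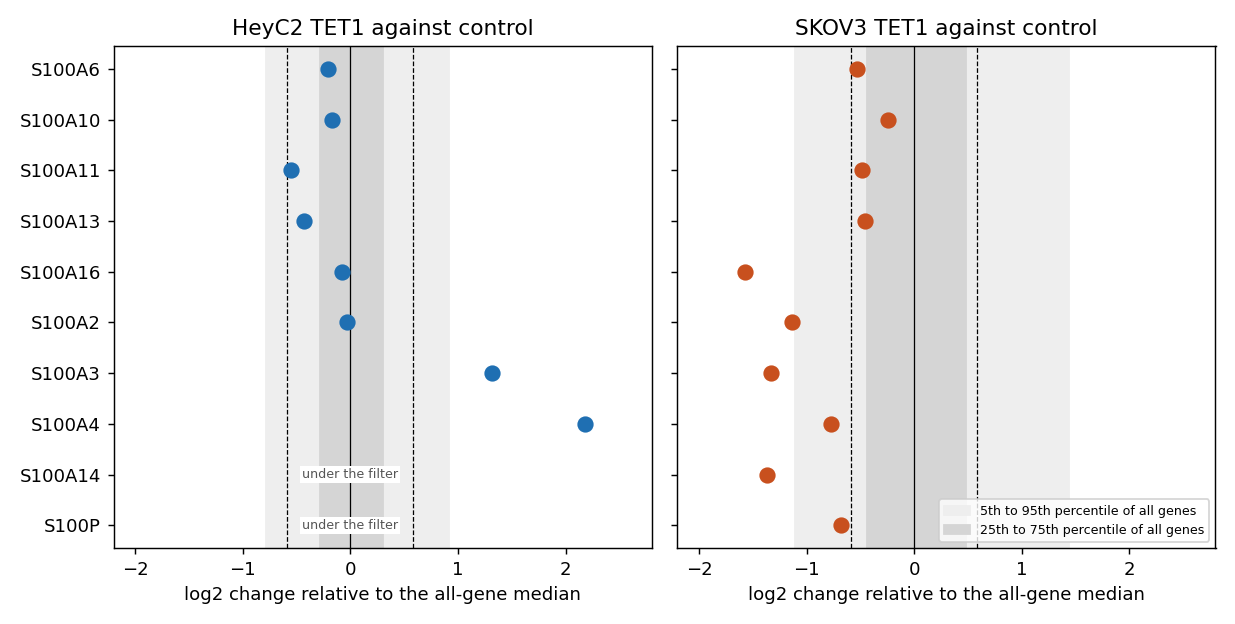
Log2 change of each S100 gene in TET1 against control, minus the median of all genes, in HeyC2 (left) and SKOV3 (right). Grey bands hold the middle of all genes (5th to 95th and 25th to 75th percentile) and dashed lines mark 1.5-fold. In HeyC2 only S100A3 (1.31) and S100A4 (2.18) lie beyond the lines, and in SKOV3 all 10 points lie left of 0, with S100A16 lowest at -1.57.

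S100A13 shares its locus with S100A1, a calcium sensor of heart muscle that is not among the 10. S100A1 lies on the plus strand (153600402 to 153604515), and 235 of its 3030 exonic bases overlap exons of S100A13. No source used here says that the reads were counted by strand, so reads in this overlap cannot be told apart. S100A1 was at 23.7 FPKM in the HeyC2 control and 154 FPKM in HeyC2 TET1, a ratio of 6.49 and a relative log2 change of 2.59. In SKOV3 it was at 4.32 and 7.10 FPKM, with a relative log2 change of 0.41. S100A1 and S100A13 thus differed in HeyC2, the first past the 1.5-fold limit and the second at -0.43.

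In SKOV3 all 10 genes passed the filter, each with a change under the all-gene median, whose own log2 change was 0.19. A total of 6, namely S100A2, S100A3, S100A4, S100A14, S100A16 and S100P, were at least 1.5-fold lower relative to all genes, against 18.2% of 13013 genes. None (0) was as far above the median, against 20.7%. The median over the 10 was -0.73. Among the 6 lower genes, S100A14 passed the filter through its control value alone and S100P rests on about 6 and 4 fragments. Over genes with a mean of at least 5 FPKM, which leaves out S100A14 and S100P, the median was -0.56. On the deposited GAPDH-scaled values without centring 3 of the 10 were at least 1.5-fold below control, against 4.48% of all genes, 0 were as far above it, against 49.7% of all genes, and S100A6, S100A10, S100A11 and S100A13 lay above control instead of below.

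S100A16, a member found in many tissues, went from 515 to 198 FPKM in SKOV3, about 3692 and 1306 fragments. Its relative log2 change of -1.57 was at percentile 1.87 of all genes, and the ratio was 0.384 (0.360 to 0.409) against a median ratio of 1.16 over all genes. In HeyC2 the same gene was at 672 and 663 FPKM, a ratio of 0.987 (0.948 to 1.03). S100A16 was therefore the abundant member whose level differed most between the TET1 and control libraries of SKOV3, with near equal levels in HeyC2. The difference between the lines was not tested.

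S100A3 went from 55.4 to 24.6 FPKM in SKOV3, a relative log2 change of -1.33 and a ratio of 0.445 (0.346 to 0.569). S100A2 went from 120 to 61.9 FPKM, with -1.14 and a ratio of 0.516 (0.452 to 0.590). S100A4 went from 1431 to 956 FPKM, with -0.77 and a ratio of 0.668 (0.633 to 0.706). It stayed among the 38 highest genes of the TET1 library. With both libraries scaled to the same FPKM sum and no centring, the change of S100A4 was -0.53 and fell short of the limit, as it did with no filter on low values, at -0.58. S100A5 was lower here as well, at 8.88 and 5.01 FPKM, about 37 and 19 fragments. Its relative log2 change was -0.91 and its ratio 0.564 (0.298 to 0.979).

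The scarcest members rest on few fragments. S100A14 went from 3.17 to 0.840 FPKM, about 20 and 5 fragments, and passed the filter through its control value alone. Its ratio was 0.265 (0.0793 to 0.742). S100P went from 2.89 to 1.77 FPKM, about 6 and 4 fragments, and its ratio of 0.612 had an interval of 0.143 to 2.90 that covered the median of all genes. At a mean of at least 5 FPKM, which leaves out S100A14 and S100P, 4 of 8 genes were lower. The share of all genes was not computed at that filter.

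The widely expressed members S100A6, S100A10, S100A11 and S100A13 stayed within 1.5-fold of the all-gene median in SKOV3. Their relative log2 changes were -0.53, -0.24, -0.48 and -0.46, with S100A10 at 0.0014 when both libraries were scaled to the same FPKM sum, and their FPKM ratios lay between 0.792 and 0.964. The interval of S100A10, 0.851 to 1.09, was the one of these 4 that included 1. The intervals of all 4 ended below the median ratio of 1.16.

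**Figure D3:**
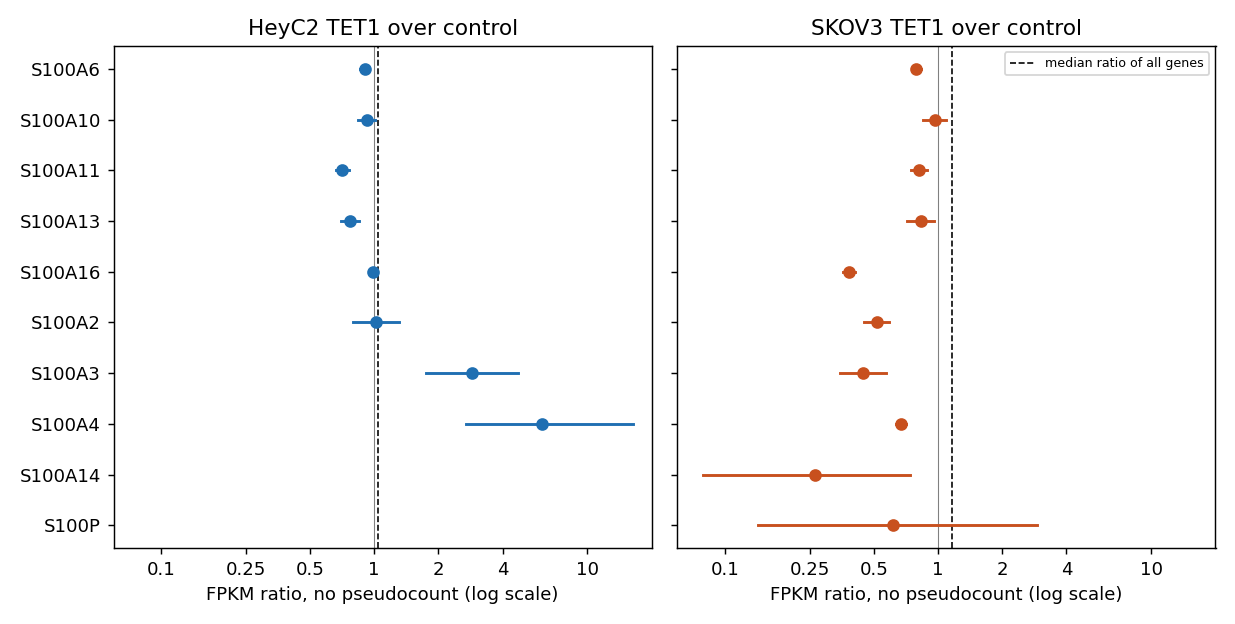
FPKM ratio of TET1 over control (log axis, no pseudocount) for each S100 gene that passed the filter, with exact 95% counting intervals from estimated fragment numbers as bars and the median ratio of all genes as a dashed line (1.05 in HeyC2, 1.16 in SKOV3). The bars are short for S100A16 and long for S100A4 in HeyC2 (2.70 to 16.4) and S100P in SKOV3 (0.143 to 2.90).

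Genes of other cell types and of cell identity moved in the same libraries. In SKOV3, COL1A1, a collagen gene of fibroblasts, was at 0.32 FPKM in control and 27.7 FPKM in TET1, while PTPRC was at 0.03 and 0.282 FPKM and PECAM1 was listed at 0 in both. KRT19, an epithelial keratin, was at 255 and 0.461 FPKM in the same pair of libraries. The other epithelial markers were not lower there, with KRT8 at 560 and 775 FPKM, KRT18 at 193 and 255 FPKM, PAX8 at 74.6 and 131 FPKM and EPCAM at 15.4 and 16.1 FPKM. In HeyC2, COL1A1 was at 0.57 and 1.76 FPKM, and the mesenchymal filament gene VIM was at 7496 and 2927 FPKM. VIM in SKOV3 was at 1223 and 835 FPKM. The part of these differences in the S100 values was not tested. In RNA of whole cultures, fewer cells that express a gene and less of its RNA per cell cannot be told apart.

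Most of the other S100 genes were not detected. The tables held 21 family genes, 11 of them outside the 10, and 7 of these 11 were listed at 0 in all 4 libraries. The alarmin genes S100A8, S100A9 and S100A12, typical of neutrophils and monocytes, were among these 7, as were S100A7A, S100A7L2, S100B and S100G. S100A7, psoriasin, reached 0.557 FPKM at most and S100Z 0.14 FPKM, each about 1 fragment. S100A1 and S100A5 were the family members outside the 10 that passed the filter in either line.

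Genes around the S100 cluster were counted for comparison. Between S100A10 and S100A13, widened by 500 kb on both sides, 78 other genes were in the tables, and in each line 52 of them were listed at 0 in both libraries. In each line 20 passed the filter. In HeyC2 2 of these were higher, against 12.5% of all genes, and 1 was lower, against 9.17%. Their median was -0.04, with SLC27A3 (0.82), INTS3 (0.74) and DENND4B (0.58) highest and FLG (-1.10), CREB3L4 (-0.23) and ILF2 (-0.22) lowest. FLG, at 2.01 and 0.461 FPKM in HeyC2 control and TET1, passed the filter through its control value alone. In SKOV3 the median of the neighbours was 0.12, against -0.73 for the 10 S100 genes, which include S100P of chromosome 4. At a mean of at least 5 FPKM, without S100A14 and S100P, the S100 median was -0.56. The neighbour median was not computed at that filter. Of the neighbours 2 were higher, against 20.7% of all genes, and 2 were lower, against 18.2%. There SLC27A3 (0.79), RAB13 (0.60) and GATAD2B (0.55) were highest and MRPL9 (-0.75), TUFT1 (-0.64) and ILF2 (-0.44) lowest. SLC27A3, at 0.86 and 2.68 FPKM in SKOV3 control and TET1, passed the filter there through its TET1 value alone. CHTOP, the nearest gene beyond S100A1 that passed the filter, was at -0.19 in HeyC2 and -0.09 in SKOV3.

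**Figure D4:**
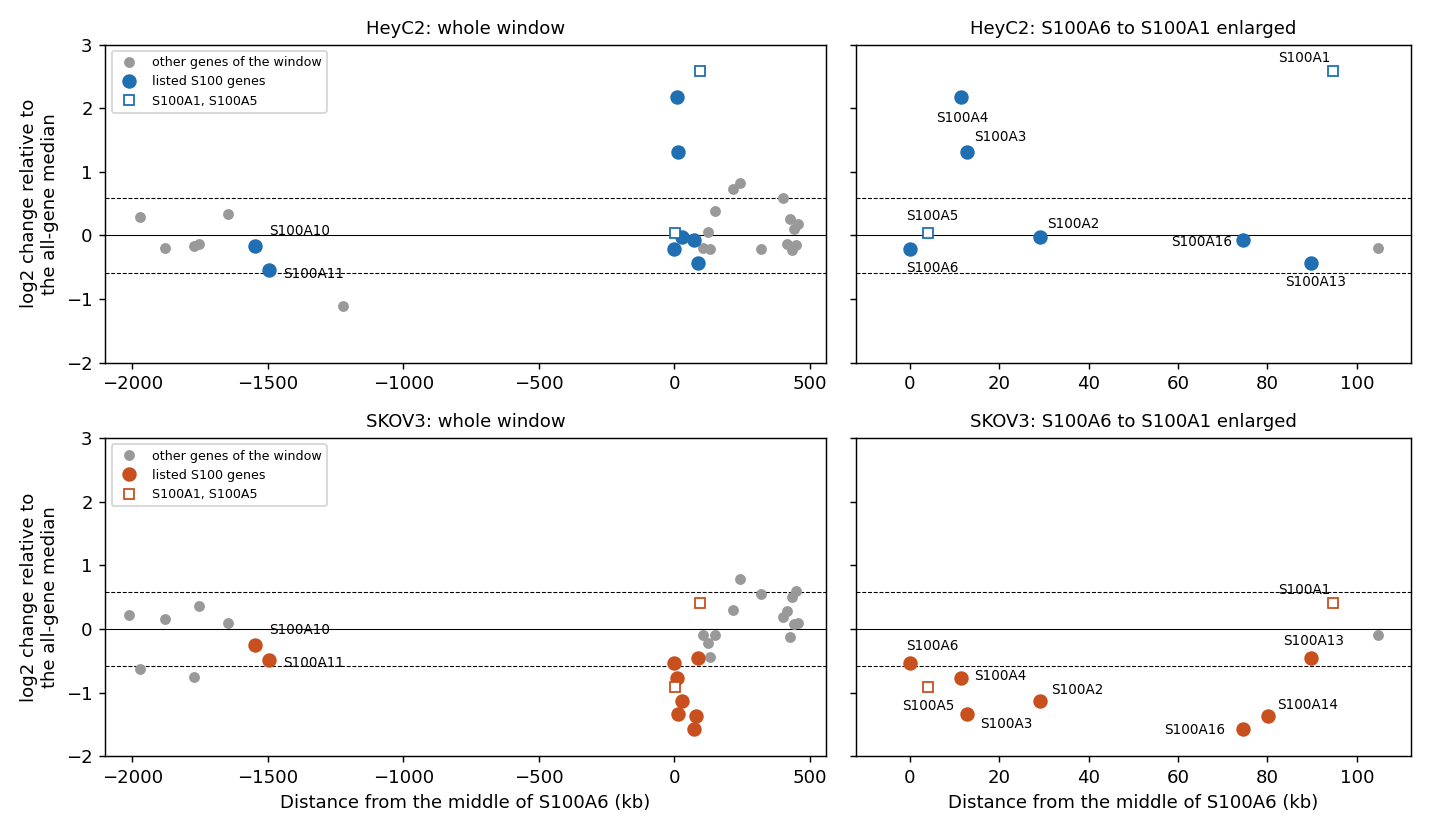
Log2 change relative to the all-gene median against distance from the middle of S100A6 (kb), for S100 genes on chromosome 1 and other genes of the window that passed the filter, in HeyC2 (top) and SKOV3 (bottom), with the S100A6 to S100A1 stretch enlarged at the right and dashed lines at 1.5-fold. In HeyC2 S100A4, S100A3 and S100A1 stand above their neighbours, and in SKOV3 the S100 genes from S100A6 to S100A13 lie between -0.46 and -1.57 while CHTOP beyond them is at -0.09.

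Proteins that S100 dimers bind were followed as a list of 20 partners and receptors. In HeyC2 all 20 passed the filter, with a median of -0.12. Of these 1 was higher, against 12.5% of all genes, and 3 were lower, against 9.17%. On the deposited scale without centring 19 were higher, as were 96.2% of all genes. In SKOV3 18 passed, with a median of -0.31. Of these 4 were higher, against 20.7% of all genes, and 6 were lower, against 18.2%. Without centring, 6 of the 18 were higher as deposited, against 49.7% of all genes. AHNAK, the scaffold bound by the S100A10 and annexin A2 complex, was lower relative to all genes in both lines, at -1.03 in HeyC2 and -1.45 in SKOV3, while its deposited value in HeyC2 was 0.72 above control on the log2 scale. ANXA2 itself was at 0.18 and -0.53, ANXA1 at -0.08 and -0.10, and CACYBP, the partner of S100A6, at -0.45 and -0.46. None of these 3 passed the 1.5-fold limit.

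Other partners and receptors of the list went various ways. MYH9, the nonmuscle myosin heavy chain bound by S100A4, was at 261 and 106 FPKM in HeyC2, a relative log2 change of -1.35 and a deposited change of 0.40. In SKOV3 it was at 331 and 257 FPKM, a change of -0.55. EZR, the ezrin gene, was at 527 and 179 FPKM in SKOV3, a change of -1.74, and at 0.07 in HeyC2. FGF1, whose export involves S100A13, was at 0.86 in HeyC2 and did not pass the filter in SKOV3. IL1A, another such cargo, was at 31.1 and 45.9 FPKM in HeyC2, a relative log2 change of 0.49. In SKOV3 IL1A was at 3.06 and 0.327 FPKM, a change of -1.81, and passed the filter through its control value alone. AGER, the receptor for secreted S100 proteins, was at 1.81 and 1.32 FPKM in HeyC2 and at 2.02 and 7.58 FPKM in SKOV3, a relative log2 change of 1.31. PLAUR, the urokinase receptor, was at -1.09 in HeyC2 and at 0.64 as deposited. In SKOV3 ANXA6 (1.44), PLAT (1.01) and SYT1 (0.76) were higher while SUGT1 (-0.88), IQGAP1 (-0.69) and BSG (-0.62) were lower. As deposited without centring, SUGT1 was at -0.28, IQGAP1 at -0.08 and BSG at -0.0026, inside the 1.5-fold limit. ANXA6, PLAT and SYT1 were then at 2.05, 1.61 and 1.29.

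A list of 30 other EF-hand proteins, such as calmodulins and calpains, served for comparison. Of these 23 passed the filter in HeyC2, with a median of 0.02. In that line 1 was higher, against 12.5% of all genes, and 3 were lower, against 9.17%. In SKOV3 25 passed, with a median of -0.21. There 1 was higher, against 20.7% of all genes, and 6 were lower, against 18.2%. At least 2-fold from the all-gene median were KCNIP3 in HeyC2 (-1.40) and CALB1 (-3.93) and EFHD2 (-1.04) in SKOV3. KCNIP3, at 3.45 and 0.751 FPKM in HeyC2 (about 69 and 14 fragments), passed the filter through its control value alone.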

How the data were processed

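RNA-seq libraries of HeyC2 and SKOV3, control and TET1, were used, 1 per group. The deposited FPKM were made by the authors from paired-end TruSeq reads aligned to hg19 with Bowtie2 2.2.6 and quantified with RSEM 1.2.17, per the labels. The annotation and strand setting are not given in the sources used here. The GAPDH constant of each TET1 column was recovered from the steps of values under 40 FPKM (100% on the grid) and divided out. Changes were log2(FPKM + 1) differences minus the all-gene median, over genes whose FPKM averaged 1 or more. Higher or lower means 1.5-fold from that median. Mapped fragments (6600000 to 7300000 per library) and mean fragment length (140 to 190 bases) were fitted so that low FPKM of single-transcript genes gave whole fragments, and fragment numbers used GENCODE canonical transcript lengths on GRCh37. Ratio intervals were exact Clopper-Pearson (95%). The calculations were tested on simulated data. No test within a line was possible with 1 library per condition, and a fit over both lines, whose tables were made separately, was not run. The members and lists were chosen with earlier results of these data known. All 10 members are named. Other family genes are named from 0.1 FPKM (those listed at 0 were added), neighbours by the 3 highest and 3 lowest per line, partners past 1.5-fold or bound by a member described, and EF-hand genes past 2-fold. CHTOP was named after its values were seen. A total of 9 alternative settings were tried. Python 3.11.15, numpy 2.4.6, pandas 2.3.3, scipy 1.17.1 and matplotlib 3.10.9 were used.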

Additional observations from a re-analysis of the deposited data

Results flagged for a closer look

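S100A3 and S100A4 lay past the 1.5-fold limit in opposite directions in the lines. The relative log2 change was 1.31 in HeyC2 and -1.33 in SKOV3 for S100A3, and 2.18 and -0.77 for S100A4. The difference between the lines was not tested, since each group has 1 library. On the deposited values without centring S100A4 in SKOV3 was at -0.15.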

How the results depend on the processing

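Within a line no paired analysis was possible because each condition has 1 library, and no library could be left out. A fit over both lines with line as a term was not run. The counts of 2 higher in HeyC2 and 0 higher in SKOV3 did not change with the pseudocount, the filter, centring of the deposited values, scaling to an equal FPKM sum, upper-quartile scaling or the threshold. On the deposited values with no centring 8 were higher in HeyC2 and 3 were lower in SKOV3, and the medians were 1.63 and -0.18, because GAPDH then fixes the zero. A 1.2-fold limit gave 2 lower in HeyC2 and 9 in SKOV3, and a 2-fold limit 4 in SKOV3. The 25th percentile of all genes, -0.28 in HeyC2 and -0.44 in SKOV3, already lay past the 1.2-fold limit. Shares of all genes were computed for the main setting and the deposited values without centring only, so the counts at other settings cannot be set against them. The SKOV3 count of lower genes was 5 with upper-quartile scaling, which lost S100P, and 4 with no filter, at 5 FPKM and at an equal FPKM sum. S100A4 and S100P were lost with no filter and at an equal FPKM sum, and S100A14 and S100P were not tested at 5 FPKM. The HeyC2 median was -0.0063 with the deposited values median-centred. The SKOV3 median was -0.84 with a pseudocount of 0.1, -0.54 with no filter, -0.56 at 5 FPKM, -0.53 at an equal FPKM sum and -0.55 with upper-quartile scaling. Of 18 single changes, 18 kept their sign and 18 their call with a pseudocount of 0.1, 18 and 17 with upper-quartile scaling, 17 and 16 at an equal FPKM sum, 16 and 18 with the deposited values centred, and 8 and 9 with no centring. Changes with under 10 fragments in a library, those of S100A4 in HeyC2 and of S100A14 and S100P in SKOV3, are limited by depth.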
